A study of Bos taurus with 252 samples.

Results

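The change in whole-blood gene expression between day 0 and day 3 was compared between 36 steers that received an antimicrobial and 6 steers that did not. For each gene and steer, the level on day 0, before administration, was subtracted from the level on day 3, and this change was compared between the pooled treated steers and the negative control steers (NC). The libraries were chosen by their day and treatment labels, without use of any measured value. They were 84 libraries, 72 from treated and 12 from NC steers, and every one of the 42 steers of the series entered with both of its libraries. The other 168 libraries of the series came from the same steers on days 7, 14, 21 and 56. The treated steers came from 6 groups of 6, named after the drug that each received, as a single injection under the skin, once the day 0 blood had been drawn. CEFT steers received ceftiofur, ENRO steers enrofloxacin, FLOR steers florfenicol, OXYT steers oxytetracycline, TILD steers tildipirosin and TULA steers tulathromycin. All were crossbred feedlot steers whose age was not given in the sources used here. NC and treated steers alike had received tildipirosin, a growth implant, dewormers and vaccines at the start of backgrounding, before they arrived. Each group occupied its own pen, and on later sampling days NC cattle went through the chute before the other groups. No sham injection was described for NC, so the drug, the injection, the pen and the order of handling cannot be told apart in any difference between treated and NC steers.

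Blood RNA stabilized at the moment of collection comes from neutrophils, lymphocytes, monocytes, platelets and young red cells together. A lower level of a gene in such a bulk sample can mean fewer cells of a type or less of its RNA per cell, and these cannot be told apart. The antimicrobials act on different bacterial targets. Ceftiofur blocks synthesis of the cell wall, enrofloxacin blocks bacterial topoisomerases, and florfenicol, oxytetracycline, tildipirosin and tulathromycin bind the bacterial ribosome, to which the ribosome of mitochondria is related. Handling and transport release glucocorticoids, which are known to move leukocytes into and out of the circulation and to alter their gene expression within hours.

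The 84 libraries held 28.2 to 56.3 M estimated counts (median 43.4 M, with M for 1000000), and the change in library total did not differ detectably between treated and NC steers (log2 difference -0.03, two-sided exact permutation test over steers, p = 0.726). Hemoglobin genes took between 0.00405% and 25.5% of a library. Their share rose in 26 of 36 treated and 5 of 6 NC steers, with a log2 difference in change of 1.1 (exact permutation p = 0.407, adjusted p = 0.543 over 4 library measures). One steer each of CEFT (Ceft8), NC (NC5) and TILD (Tild3) had a library with more than 5% hemoglobin. None of the markers of T cells, B cells, neutrophils and monocytes found in the table was at 0 in all 84 libraries. Summed T-cell markers lay between 2900 and 4420 CPM, that is counts scaled to a library total of 1000000, in the NC steers on day 0.

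The day 3 change differed between treated and NC steers for 116 of 19056 genes tested (0.609%), by edgeR's quasi-likelihood test with steer as a block and a threshold of 0.1 on the false discovery rate (FDR). Relative to NC, 75 genes fell (0.394%) and 41 rose (0.215%) in treated steers, and 2172 genes (11.4%) had an unadjusted p below 0.05. Chance alone would pass about 1 in 20 genes at that threshold. With DESeq2's median-ratio size factors (RLE) in place of TMM the split was 45 lower and 41 higher. The differences were small. Their median was -0.35 on the log2 scale for the genes that fell (range -1.08 to -0.18) and 0.28 for those that rose (0.18 to 0.97), against -0.005 over all genes tested. The ends of -1.08 and 0.97 belong to the entry of MIR2339 and to ELAC2, which overlap and may share reads. A difference of at most 0.5 was found for 68 of the 75 and 37 of the 41 genes. Only 2 genes, both lower, passed a difference of 1, the MIR2339 entry and JAK1. In all 116 genes the mean change of each of the 6 treatments lay on the same side of the NC mean. This set was chosen by the pooled contrast of the same steers, and all 6 treatments share that NC mean. The same-side share over all genes tested is not reported here. No gene had changes that separated all 36 treated from all 6 NC steers (0 of 19056).

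**Figure D1:**
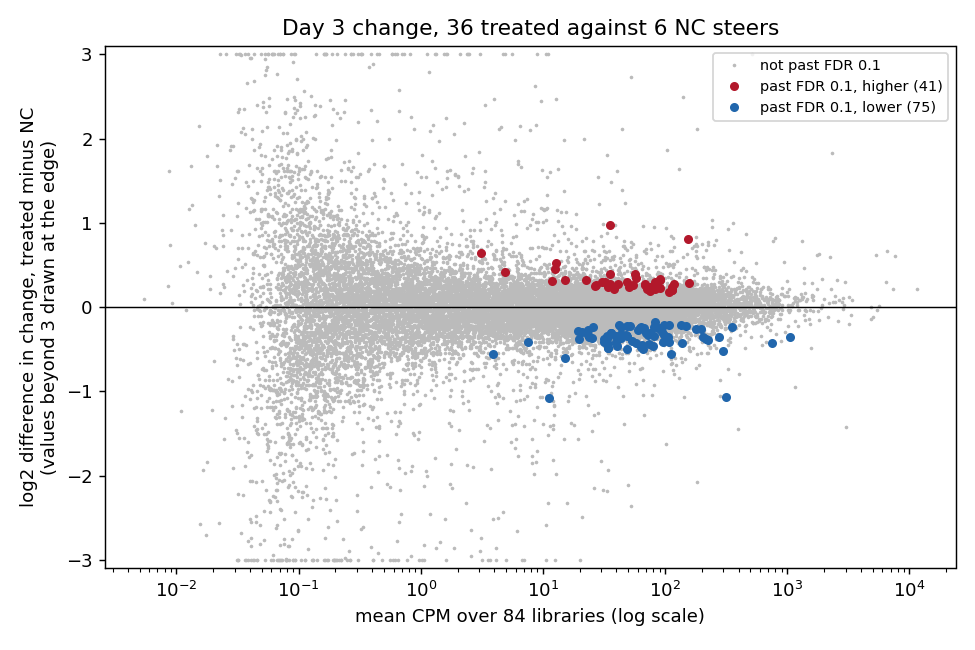
Log2 difference in the day 3 change (treated minus NC, vertical axis) against mean CPM over the 84 libraries (horizontal axis, log scale), 1 point per gene tested, with differences beyond 3 drawn at the edge. Of the 41 genes called higher and 75 called lower, 37 and 68 had differences of at most 0.5, and all had a mean CPM of at least 1. Called differences lay between -1.08 and 0.97, and those further out did not pass the test. These 2 ends belong to the entry of MIR2339 and to ELAC2, which overlap and may share reads.

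The number of calls depended on the 6 NC steers. Without one of them it was 7 (NC1), 10 (NC12), 3 (NC13), 15 (NC15), 0 (NC5) or 27 (NC7), and 1469 genes kept an unadjusted p below 0.05 without NC5. Among treatments, the count was 15 without CEFT, 12 without TILD and 4 without TULA, and it was 117 without ENRO, 328 without FLOR and 214 without OXYT. Leaving out a single treated steer gave between 59 and 354 calls. It fell to 67 without Ceft3, 71 without Ceft5, 70 without Ceft6, 71 without Ceft8, 59 without Enro5, 73 without Enro6, 70 without Enro8, 62 without Enro9, 69 without Flor10, 67 without Flor8, 60 without Tild2, 70 without Tild5, 61 without Tula3 and 68 without Tula6. It rose to 239 without Enro10, 200 without Enro2, 183 without Flor3, 354 without Flor4 and 180 without Oxyt2. Without the 3 steers that had a library above 5% hemoglobin, 0 genes were called and 1471 had an unadjusted p below 0.05. The part of hemoglobin in this loss was not tested, and leaving out NC5 by itself also gave 0 calls. In each of these fits all 116 genes kept the direction of their difference. The fits share most of the libraries that chose these genes, so the kept direction is a description. Each of the 34 called genes chosen by a fixed naming rule (by p, by size of difference or by list) had an adjusted p above 0.1 in at least 1 fit without an NC steer, the highest value per gene being 0.144 to 0.377.

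**Figure D2:**
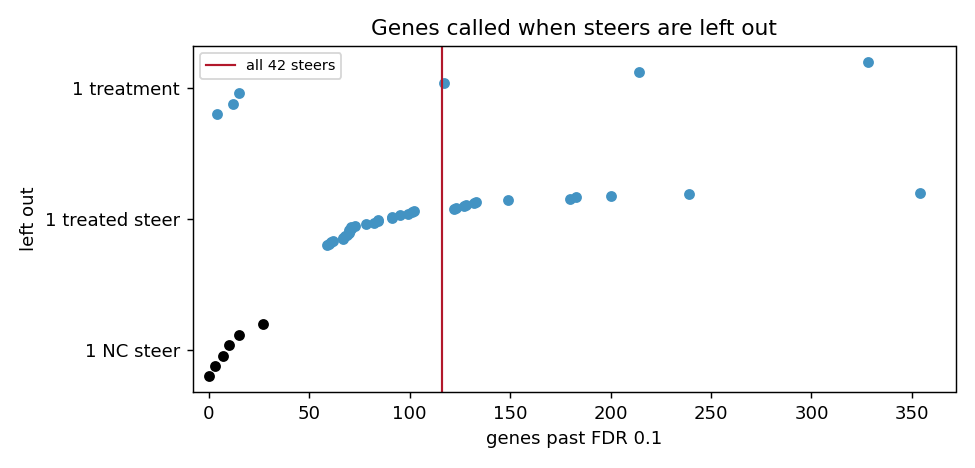
Number of genes past FDR 0.1 (horizontal axis) when 1 NC steer, 1 treated steer or the 6 steers of 1 treatment were left out, 1 point per fit, with the vertical line at the 116 genes called with all 42 steers. Every fit without an NC steer lies at 27 genes or fewer, while fits without a treated steer lie between 59 and 354.

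All NC steers were sequenced on lane 1, with the 6 ENRO and 2 FLOR steers. Each steer was on a single lane, so a constant lane effect drops out of its change. Within lane 1 alone, with 8 treated and 6 NC steers, 0 genes passed the FDR and 789 had an unadjusted p below 0.05. The 75 lower genes had a median difference of -0.27 there and the 41 higher genes one of 0.24, and all 116 kept their sign. The test passed an unadjusted p of 0.05 in lane 1 for 55 of the 75 and 35 of the 41. A day 3 term for each lane gave 0 calls as well, and 925 genes with an unadjusted p below 0.05. Both 789 and 925 lay below 1 in 20 of the 19056 genes tested, about what chance alone would pass. The fit of all 42 steers without lane terms had 2172. The lane 1 steers are among the 42, so these values are not independent of the calls.

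The genes chosen by the naming rule are given by their known roles, an arrangement made after their values had been seen and not tested for enrichment. Of those lower in treated steers, 4 have roles in RNA processing or decay. PRPF38B, a factor of pre-mRNA splicing, lay between 43 and 62.3 CPM in NC steers on day 0 (median 53.2) and between 45.2 and 63 on day 3 (median 55.2). In treated steers it went from 41.2 to 70.9 CPM (median 55) on day 0 to 29.6 to 51.3 (median 39.9) on day 3. It fell in 34 of 36 treated steers, and 34 of the 36 had a lower change than any NC steer. The log2 difference in change was -0.50 ± 0.096 (SE; adjusted p = 0.0399). ZFP36L2, which binds AU-rich elements and promotes decay of mRNA, changed by -0.04 to 0.40 (log2, median 0.10) in NC and by -0.78 to 0.26 (median -0.34) in treated steers. Its medians in treated steers were 320.0 CPM on day 0 and 249.0 on day 3, against 295.0 and 318.0 in NC, and the difference was -0.52 ± 0.10 (adjusted p = 0.0399). TOB2, an antiproliferative protein that recruits deadenylases, rose in 6 of 6 NC steers and fell in 33 of 36 treated steers, with a difference of -0.46 ± 0.093 (adjusted p = 0.0399). ZCCHC11, a terminal uridylyltransferase, had a difference of -0.45 ± 0.099 (adjusted p = 0.0498) and fell in 29 of 36 treated steers.

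PTPRC and NFATC2 were the lower genes of the T-cell receptor signaling list (2 of 28 tested). PTPRC encodes CD45, the tyrosine phosphatase on the surface of all leukocytes. In NC steers it lay between 1070 and 1240 CPM on day 0 (median 1120) and between 1090 and 1280 on day 3 (median 1200). In treated steers the range was 920 to 1450 (median 1140) on day 0 and 752 to 1080 (median 953) on day 3. The day 3 ranges thus did not overlap (1080 against 1090 at the boundary), while the day 0 ranges did. How many other genes had day 3 levels without overlap was not counted, and lane does not drop out of a level. The changes of PTPRC overlapped, with 32 of 36 treated steers lower than any NC steer. The difference in change was -0.35 ± 0.077 (adjusted p = 0.0498). NFATC2, a transcription factor activated by calcium downstream of the T-cell receptor, rose in 6 of 6 NC and fell in 27 of 36 treated steers (difference -0.33 ± 0.088, adjusted p = 0.0976).

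JAK1, the kinase of many cytokine receptors, had a larger difference and another pattern. In NC steers it ranged from 72.7 to 402 CPM on day 0 (median 191) and from 219 to 452 on day 3 (median 406). In treated steers it ranged from 139 to 501 (median 365) and then from 111 to 472 (median 313). The NC median thus started below the treated median and ended above it, and treated steers changed in both directions, 24 down and 12 up. The difference in change was -1.07 ± 0.27 (adjusted p = 0.076), while the day 0 level was 0.64 higher in treated than in NC steers (unadjusted p = 0.00633, not past FDR 0.1).

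Other lower genes encode regulators of transcription, as do some of the higher calls given further on. ZMIZ1, a coactivator of the PIAS family, rose in 6 of 6 NC and fell in 30 of 36 treated steers (difference -0.47 ± 0.095, adjusted p = 0.0399). SERTAD2, a transcriptional coregulator, showed the same counts of 6 and 30 and a difference of -0.32 ± 0.070 (adjusted p = 0.0498). TCF4, an E protein needed for plasmacytoid dendritic cells, fell in 31 of 36 treated steers (difference -0.48 ± 0.12, adjusted p = 0.076). USF3 ranged from 7.88 to 26 CPM (median 18.3) in treated steers on day 0 and from 6.36 to 14.6 (median 11.1) on day 3, and in NC steers its medians were 18.5 and 17.9. Its difference was -0.61 ± 0.17 (adjusted p = 0.0991), and 34 of 36 treated steers fell. Here the medians of NC steers lay close together and those of treated steers lay further apart.

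The remaining lower genes had various roles. UBQLN1, which shuttles ubiquitinated proteins to the proteasome, fell in 36 of 36 treated steers, with changes of -0.39 to -0.03 (log2), and in 2 of 6 NC steers. Its difference was -0.21 ± 0.047 (adjusted p = 0.0498). EIF2AK3 encodes PERK, the sensor of unfolded proteins in the endoplasmic reticulum. Its NC medians were 42.9 CPM on day 0 and 45.1 on day 3, and its treated medians were 41.9 and 34.2, with a fall in 34 of 36 treated steers (difference -0.34 ± 0.079, adjusted p = 0.0672). FBXO34, an F-box protein, had a difference of -0.29 ± 0.061 (adjusted p = 0.0498). KIAA1671, a gene at a low level (mean 3.88 CPM), had a difference of -0.56 ± 0.15 (adjusted p = 0.0976).

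The genes that rose relative to NC had various roles as well. TRAPPC2L, a subunit of the TRAPP complexes that tether transport vesicles, lay between 91.5 and 105 CPM (median 97.2) in NC steers on day 0 and between 90.8 and 104 (median 101) on day 3. In treated steers it lay between 87.3 and 129 (median 101) and then between 101 and 146 (median 113). It rose in 36 of 36 treated and 2 of 6 NC steers, and the difference was 0.18 ± 0.037 (adjusted p = 0.0399). Of the treated steers, 30 of 36 rose more than any NC steer. ARFGAP1, which activates the GTPase of ARF1 at the Golgi, differed by 0.39 ± 0.090 (adjusted p = 0.0665), or by 0.29 without NC1. ZDHHC4 and ZDHHC16 are palmitoyltransferases. ZDHHC4 fell in 6 of 6 NC steers (median 93.5 to 81 CPM) and rose in 30 of 36 treated steers (85.3 to 95.4 CPM), a difference of 0.32 ± 0.066 (adjusted p = 0.0399), and ZDHHC16 differed by 0.26 ± 0.060 (adjusted p = 0.0672).

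SPOUT1, a putative RNA methyltransferase, lay between 44.8 and 75.1 CPM (median 55.5) in NC steers on day 0 and between 38 and 68.5 (median 49.4) on day 3. Treated steers lay between 36.6 and 68.1 (median 49.9) and then between 40.6 and 94.9 (median 61). NC steers thus mostly fell, 4 of 6, and treated steers rose, 34 of 36, with a difference of 0.39 ± 0.078 (adjusted p = 0.0399). RMND5B, a RING-domain subunit of the CTLH ubiquitin ligase, fell in 6 of 6 NC steers and rose in 31 of 36 treated steers (difference 0.20 ± 0.044, adjusted p = 0.0549). CYHR1, a zinc finger protein, differed by 0.29 ± 0.061 (adjusted p = 0.0436) and JRK, a DNA-binding protein, by 0.23 ± 0.054 (adjusted p = 0.0703). The uncharacterized LOC100336564 and LOC507443 differed by 0.28 ± 0.067 (adjusted p = 0.0728) and 0.45 ± 0.11 (adjusted p = 0.0816).

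MDK, the heparin-binding growth factor midkine, and DLEC1, a candidate tumor suppressor with a role in cilia, had larger differences, and NC steers moved further than the median treated steer. MDK fell in 6 of 6 NC steers, with changes of -1.84 to -0.10 (log2, median -0.47), and rose in 25 of 36 treated steers (median change 0.16). On day 0 its NC median was 203 CPM and its treated median 147, and on day 3 they were 138 and 168. The difference in change was 0.81 ± 0.21 (adjusted p = 0.0952). DLEC1 fell in 6 of 6 NC steers and rose in 25 of 36 treated steers (difference 0.52 ± 0.14, adjusted p = 0.0991).

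**Figure D3:**
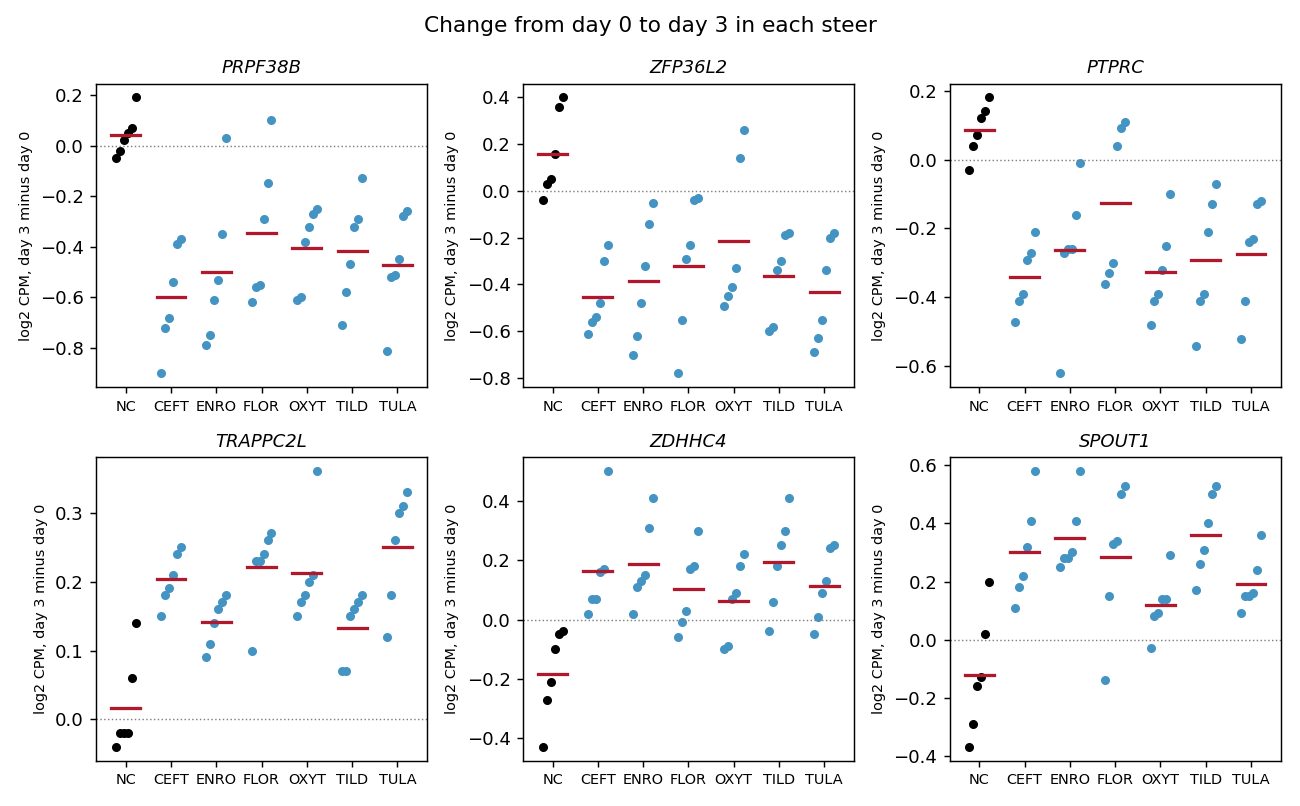
Change in log2 CPM from day 0 to day 3 (vertical axis, its range set for each gene) for 3 genes called lower (top) and 3 called higher (bottom), 1 point per steer by group, with NC in black and the red bar at the group mean (6 steers per group). Treated groups lie to the same side of NC in each panel, and TRAPPC2L rose in all 36 treated steers, while the points of treated and NC steers overlap. The genes were chosen by the pooled contrast, and all treated groups are set against the same NC steers.

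Among the 57 lower and 25 higher calls that the naming rule did not choose, differences ranged from -0.50 to -0.18 and from 0.19 to 0.42. The following were picked from them for their known roles after their values had been seen. The differences were -0.43 for RANBP2, -0.33 for TPR and -0.18 for NUP50, which are nuclear pore proteins, and -0.35 for LBR of the nuclear envelope. Also lower were the splicing cofactor SON (-0.36), the chromatin genes KAT6B (-0.42), PBRM1 (-0.34) and RSF1 (-0.33), and the general transcription factor subunits TAF4 (-0.36) and TAF3 (-0.28). On the higher side stood BAP1 (0.20), a histone deubiquitinase, MED22 (0.26), a subunit of Mediator, and CPSF4 (0.22), a factor of mRNA 3' end processing. Gene length is not reported here, since the annotation at hand was of another build.

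Some calls belong to genes whose reads may be shared with an overlapping gene, and those are uncertain. ELAC2, a tRNA-processing nuclease, had a difference of 0.97 ± 0.20 (adjusted p = 0.0406), and the entry of the overlapping microRNA MIR2339 one of -1.08 ± 0.28 (adjusted p = 0.0875). ELAC2 fell in 6 of 6 NC steers from a median of 36.5 to 17.1 CPM while the MIR2339 entry rose in 6 of 6 from 8.08 to 25.2 CPM. Their sum was 44.3 CPM on day 0 and 42.4 on day 3 in NC steers and 45.7 and 49.4 in treated steers (medians), and the difference in change of the sum was 0.19. Both entries thus moved against each other in the same steers. The entry of MIR6527 had the smallest p of all genes (difference -0.56 ± 0.098, adjusted p = 0.0168) and rose in 6 of 6 NC steers and fell in 30 of 36 treated steers. Summed with ADNP, which it overlaps, the difference was -0.30. LOC100848484 differed by 0.64 ± 0.16 (adjusted p = 0.076), and its sum with LOC112449446 by -0.00. No mature microRNA was measured by these mRNA libraries.

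The median change over each set of calls gives the size per steer. Over the 75 lower genes it was 0.01 to 0.14 in NC steers (median 0.055) and -0.56 to 0.06 in treated steers (median -0.275). Over the 41 higher genes it was -0.16 to 0.02 in NC (median -0.085) and -0.06 to 0.36 in treated steers (median 0.195). By these set medians treated steers moved further than NC steers, and 1 FLOR steer lay within the NC range in each set. NC steers were not static in single genes. Their mean change was above 0 in 63 of the 75 lower genes and in 4 of the 41 higher genes. In some genes, as given above for MDK and DLEC1, NC steers moved further than the median treated steer. These genes were chosen by the same contrast, so the separation is a description.

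**Figure D4:**
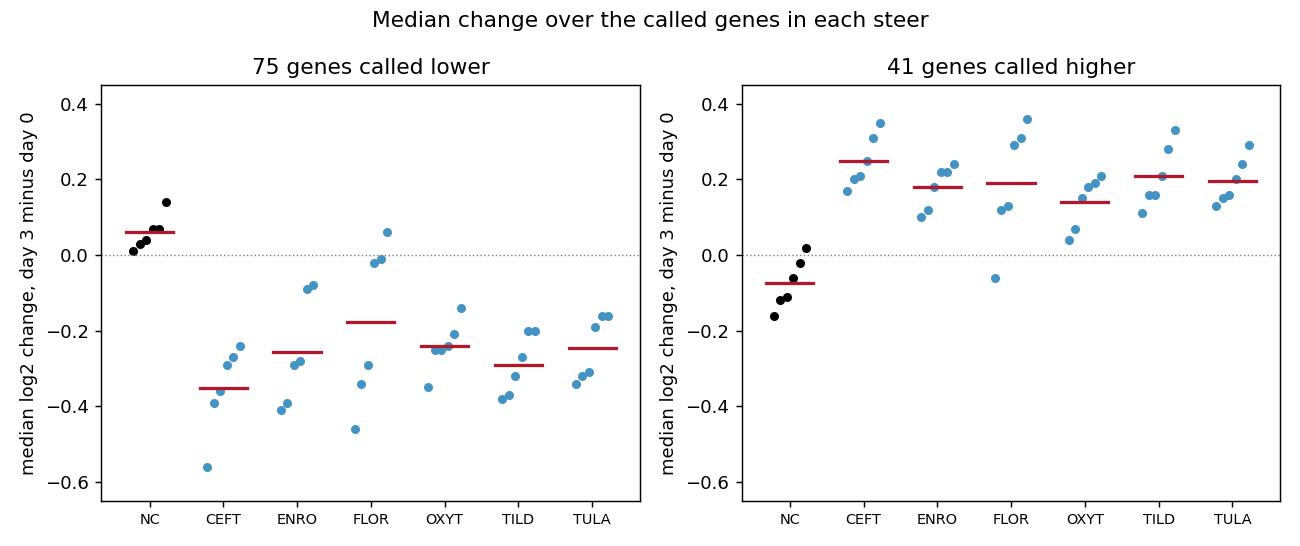
Median log2 change from day 0 to day 3 over the 75 genes called lower (left) and the 41 called higher (right), 1 point per steer by group, with NC in black and the red bar at the group mean (6 steers per group). NC steers lie between 0.01 and 0.14 on the left and between -0.16 and 0.02 on the right, and the genes were selected by this contrast.

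Whether the 6 treatments differed among themselves was tested in the 36 treated steers. No gene did at FDR 0.1 (0%), with 1059 at an unadjusted p below 0.05, while edgeR's likelihood ratio test called 57 genes. Against NC, CEFT had 1490 calls (7.82%), 613 higher and 877 lower, ENRO had 5 (0.0262%) and OXYT had 4 (0.021%). FLOR, TILD and TULA had 0 each (0%), with 1626, 1837 and 1354 genes at an unadjusted p below 0.05. These 6 comparisons share the 6 NC steers, and a difference in their counts is no test of a difference between treatments. Each group was also set against the other 36 steers. NC had 132 calls there (0.693%), 88 higher and 44 lower in NC, FLOR had 48 (0.252%), all lower in FLOR, and CEFT had 3 (0.0157%). ENRO, OXYT, TILD and TULA had 0 (0%), with 498, 1296, 550 and 787 genes at an unadjusted p below 0.05. Of these counts, all but that of OXYT lay below 1 in 20 of the genes tested.

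The changes of single genes are given by treatment. For PRPF38B the mean change was -0.60 in CEFT, -0.50 in ENRO and -0.47 in TULA. It was -0.42 in TILD, -0.40 in OXYT and -0.35 in FLOR. Against NC it passed FDR 0.1 in CEFT (adjusted p = 0.0238) and in none of the other 5 treatments (adjusted p 0.244 to 0.537). TOB2 passed in CEFT (-0.32, adjusted p = 0.0301) and ENRO (-0.43, adjusted p = 0.0478), and its mean change in FLOR was -0.07. The MIR6527 entry passed in CEFT, ENRO and OXYT (adjusted p 0.0327, 0.0478 and 0.0828). For none of the genes named did the test among treatments pass FDR 0.1.

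Levels before administration were compared by the same test between steers, without a block, as each steer gave 1 library. Lane does not drop out of such a comparison, and its count cannot be set against the 116. On day 0, 0 genes differed in level between treated and NC steers (0%), and 1063 had an unadjusted p below 0.05. The 75 genes that fell had a median day 0 difference of 0.04 and the 41 that rose one of -0.05, and 58 and 31 of them lay on the side opposite to their later change. A gap on day 0 enters the difference in change with the opposite sign. Of the 116 genes, 10 had an unadjusted day 0 p below 0.05 (8 lower and 2 higher calls, unadjusted p-values of 0.00423 to 0.0492 by edgeR), against 5.58% of all genes tested. The lower calls among them started higher in treated steers, by 0.64 for JAK1, 0.28 for the MIR6527 entry, 0.22 for TOB2, 0.16 for RTN4, 0.17 for NUP50, 0.14 for SERTAD2, 0.28 for HIPK2 and 0.72 for KIAA1671. The 2 higher calls started lower in treated steers, by a log2 difference of -0.44 for MDK and -0.63 for LOC507443. Of these 10, the MIR6527 entry alone differed in level on day 3 (-0.28, adjusted p = 0.0767). The day 3 level difference was -0.24 for TOB2 (adjusted p = 0.117), -0.26 for JAK1 (0.548) and 0.30 for MDK (0.385). For LOC507443 it was -0.12 (0.809) and for KIAA1671 0.26 (0.723), on the side opposite to the difference in change. On day 3 alone, without the day 0 library and without a block, 1084 genes differed in level (5.69%), 54 of the 75 lower and 17 of the 41 higher genes among them. The 116 genes were chosen with these same day 3 libraries, so their share is a description.

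The same contrast on later days was taken from a fit of the libraries of all 6 days. Between day 0 and day 7 it gave 20 calls (0.105%), 3 higher and 17 lower, and on days 14 and 21 it gave 1 each (0.00525%). On day 56 it gave 0 (0%), with 897 genes at an unadjusted p below 0.05, fewer than 1 in 20 of those tested. In that fit the day 3 change itself had 1 call, so the counts of later days are to be read against 1 and not against 116. None of the 116 genes passed on a later day. Their median differences on days 7, 14, 21 and 56 were -0.02, -0.13, -0.12 and -0.12 for the lower genes and 0.05, 0.11, 0.16 and 0.12 for the higher genes. The day 3 and later values share day 0 libraries.

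Counts of called list members are to be set against the 0.609% of all genes tested that were called, and counts at an unadjusted p below 0.05 against 11.4%. Of the marker lists of blood cells, 1 had a member that passed the test. Of 20 T-cell markers 0 passed, and their median difference was 0.00, against -0.005 over all genes tested. The medians were -0.09 for B cells (15 genes), -0.09 for NK and cytotoxic cells (17), -0.08 for gamma delta T cells (9), -0.01 for plasma cells (10), 0.14 for neutrophils (17), 0.04 for monocytes (17), -0.19 for eosinophils and basophils (13), -0.18 for platelets (17) and -0.14 for erythroid cells (25), with 0 calls in each. Among B-cell genes, PAX5 differed by -0.47 ± 0.16 and BLK by 0.24 ± 0.11 (adjusted p 0.19 and 0.40), so members of 1 list lay on both sides of 0. Of 9 dendritic cell markers 1 passed, TCF4, and the median of the list was 0.11. Granule protein genes of neutrophil precursors had a median of -1.14 over 18 genes, most of them at low levels, and 0 calls. Their summed level did not fall, with medians of 1920 CPM on day 0 and 2320 on day 3 in NC and 2280 and 2400 in treated steers.

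Skeletal muscle markers, which do not belong in blood, had a median difference of 4.19 over 13 genes, 13 of 13 above 0 and 0 called. Their summed level on day 3 was 9.22 to 20.7 CPM in NC and 8.84 to 576 CPM in treated steers, with 576 CPM in Ceft10, 420 in Ceft5 and 165 in Tild7. Skin and hair markers had a median of -1.56 over 12 genes, with day 3 sums of 21.2 to 24.1 CPM in NC and 10.8 to 86.7 CPM in treated steers. Without the 4 steers that had more than 100 CPM of muscle markers on either day, 107 genes were called, 90 of them among the 116.

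Immune response lists had few or no calls. Interferon response genes had a median difference of 0.49, with 26 of 30 above 0 and 0 called. IFIT3, an antiviral interferon-induced gene, had a difference of 1.03 ± 0.48 (adjusted p = 0.396), with a median change of -1.30 in NC and -0.01 in treated steers. The spread between steers was wide, as the summed level in treated steers on day 3 went from 2370 to 22600 CPM. Inflammatory cytokines and chemokines (median 0.01, 24 genes), acute phase and endotoxin response (0.08, 16), Toll-like receptors and adaptors (0.00, 19), class I (0.11, 19) and class II antigen presentation (0.04, 18), and lymphocyte homing and chemokine receptors (-0.01, 26) had 0 calls each. In T-cell receptor signaling 2 of 28 genes fell (0.394% of all genes tested did), PTPRC and NFATC2, and the median was -0.07, with 11 of 28 above 0. JAK1 was the single call in JAK and STAT signaling (1 of 34, median -0.01) and in the T-helper and Th17 list (1 of 23, median -0.08). Of 32 genes of the NF-kB pathway 10 had an unadjusted p below 0.05 (11.4% of all genes tested) and 0 passed, and TNFAIP3, its feedback inhibitor A20, differed by -0.50 ± 0.15 (adjusted p = 0.139).

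Lists tied to handling and stress had medians below 0. Some of them share members, among them DUSP1, DDIT4, ATF3 and HSPA5, so they are not independent. Of 25 immediate early genes, 18 had a difference below 0 and 10 an unadjusted p below 0.05 (11.4% of all genes tested), with a median of -0.18 and 0 calls. NR4A3 and FOSB, transcription factors induced within minutes of a stimulus, differed by -1.25 ± 0.34 and -1.34 ± 0.40 (adjusted p 0.103 and 0.133). In the glucocorticoid response 1 of 24 genes passed, ZFP36L2, and the median was -0.21, with 9 of 24 differences above 0. The median change of this list was -0.10 in NC, -0.56 in CEFT, -0.38 in both TILD and TULA, -0.29 in both FLOR and OXYT and -0.02 in ENRO. Heat shock proteins and chaperones (median -0.15, 24 genes, 0 called) and clock genes (-0.03, 19, 0 called) did not pass. In the integrated stress and unfolded protein response 1 of 22 genes passed, EIF2AK3, and the median was -0.14.

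Lists of protein synthesis, respiration and metabolism were mixed. Mitochondrial ribosomal proteins had 59 of 77 differences above 0, a median of 0.10 and 2 calls, both higher (0.215% of all genes tested were). These were MRPL4 (0.30 ± 0.074, adjusted p = 0.076), which went from a median of 29.5 to 35 CPM in treated and from 31.7 to 29.7 in NC steers, and MRPL37 (0.24 ± 0.062, adjusted p = 0.0919). Both are proteins of the large mitochondrial subunit. The 13 genes of mitochondrial DNA had a median of 0.29, nuclear genes of oxidative phosphorylation one of 0.06 (84 genes), proteasome subunits one of 0.08 (31) and cytosolic ribosomal proteins one of -0.07 (84), with 0 calls in each. PSMD3, of the proteasome lid, differed by 0.22 ± 0.059 and just missed the FDR (adjusted p = 0.103). Sterol and fatty acid synthesis had 20 of 22 differences below 0 and a median of -0.22. Splicing factors had a median of -0.07 with 23 of 29 below 0, and with cell cycle (-0.03, 30), lysosomal (0.04, 28) and detoxification genes (-0.04, 22) they had 0 calls.

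**Figure D5:**
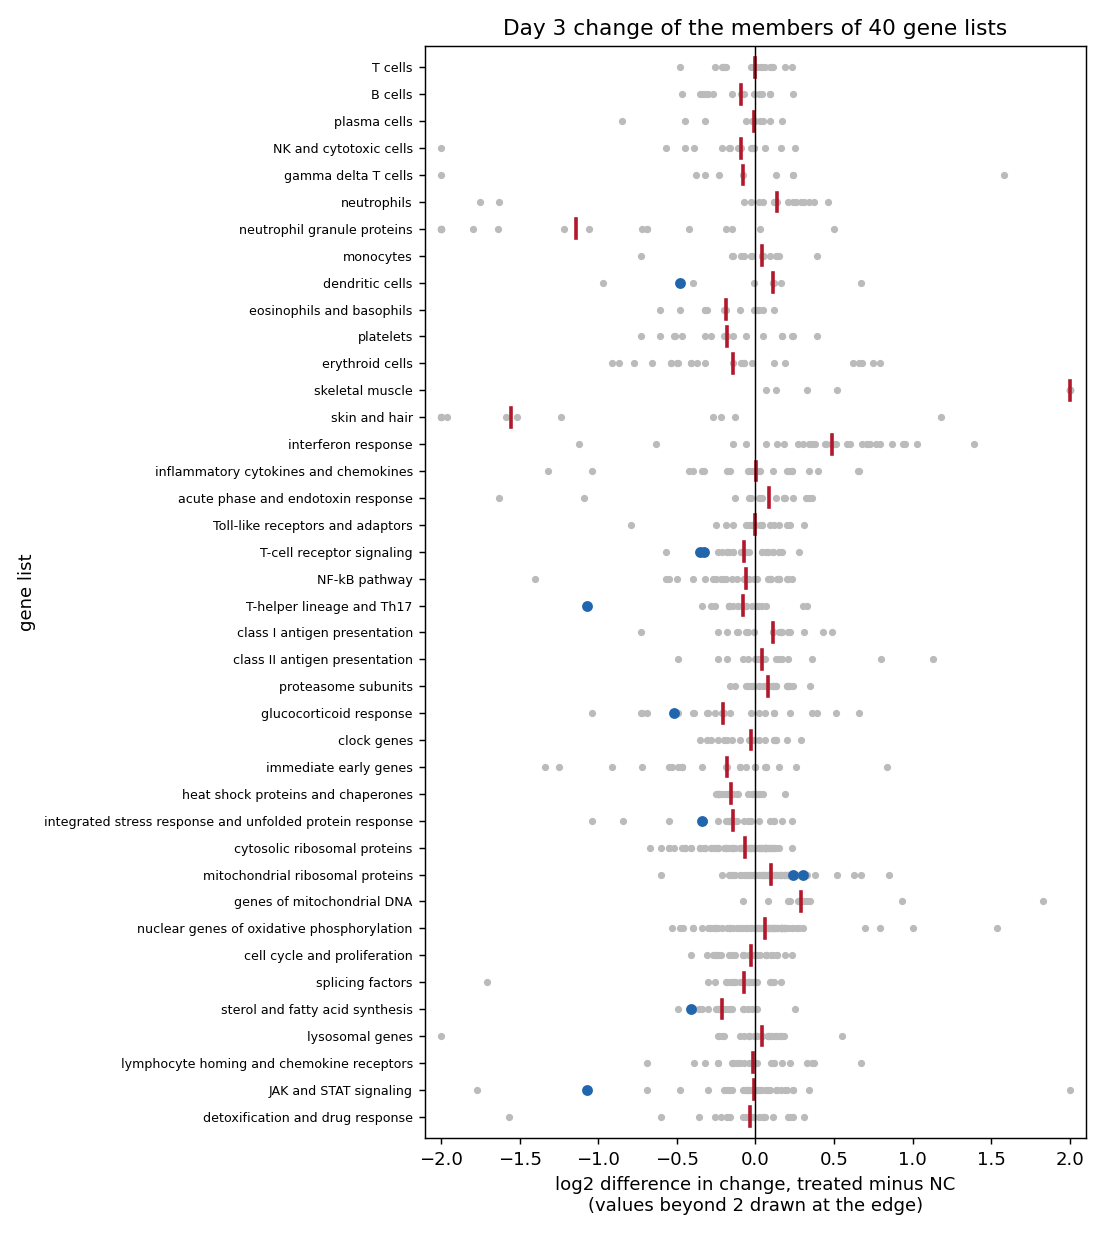
Log2 difference in the day 3 change (treated minus NC, horizontal axis) of the tested members of 40 gene lists (vertical axis), 1 grey point per gene not past FDR 0.1, 1 blue point per called gene and a red bar at the list median, with values beyond 2 drawn at the edge. Most medians lie near 0, those of skeletal muscle (4.19, drawn at the edge), skin and hair (-1.56), neutrophil granule proteins (-1.14) and the interferon response (0.49) lie further out, and the blue points fall in 8 lists.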

How the data were processed

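Whole blood was collected into PAXgene tubes and stranded mRNA libraries were sequenced on 3 lanes. Per the labels and the study's methods, the authors trimmed reads with Trimmomatic 0.39, aligned them with HISAT2 to ARS-UCD1.3 and assembled transcripts with StringTie 2.2.0, and prepDE.py3 turned coverage into counts for a read length of 150. The deposited values are expected counts, that is whole-number estimated counts per gene that the authors had not normalized or adjusted for lane. They rest on coverage of assembled transcripts, so overlapping genes can exchange counts between libraries. CPM was computed here from them.

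Genes with CPM above 0.2 in at least 12 libraries of the series were tested (19056 of 33282), and 14226 were not. At the median library total, 0.2 CPM is 8.68 counts. edgeR 4.0.16 in R 4.3.3 fitted steer, day 3 and day 3 by treated to the 84 libraries, with TMM scaling, trended dispersions and the quasi-likelihood test (glmQLFit with its default, legacy=TRUE). P-values were adjusted over all genes tested (Benjamini-Hochberg, FDR 0.1). Standard errors are the log2 difference divided by the square root of F. Changes per steer are in log2 CPM (prior count 2). Library measures were compared by exact permutation of steers (5245786 splits, two-sided). Fits without a steer reused the dispersions and TMM factors of the full fit. Likelihood ratio tests used dispersions per gene. Other tools were limma 3.58.1, DESeq2 1.42.0, sva 3.50.0, Python 3.11.15, numpy 2.4.6, pandas 2.3.3 and matplotlib 3.10.9. The script was tested on simulated data, with changes built into genes at a mean CPM of at least 1. It recovered 6 of 100 genes at a log2 change of 0.5 and 68 of 100 at a change of 1. Of 80 calls, 6 (7.5%) were false. In the simulation, changes of 0.5 were thus mostly missed, so a list with 0 calls may still hold differences of that size.

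Days of a steer are paired by the steer's name. After subtraction of group means, the correlation between day 0 and day 3 of 1 steer had a median of 0.365 (lowest 0.245), against -0.0691 for other steers of the group, and 42 of 42 exceeded 0.1. Steer numbers do not pair groups.

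Genes named were the 10 of smallest p in each direction, the 5 of largest difference in each direction at a mean CPM of at least 1, and from each of 40 lists up to 4 called members or, without any, up to 2 of smallest p as values. One gene chosen by this rule is not reported here. The members and lists were chosen with earlier results of these data known. Overlaps between genes came from a RefSeq table of another assembly (ARS-UCD2.0), which matched 27798 of the 33282 entries (83.5%) by symbol or accession. No sequence or coordinate is given, as no genome was used.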

Additional observations from a re-analysis of the deposited data

Results flagged for a closer look

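Values far from the rest of their group were looked for in 38 groups of 6 steers, as a gap to the nearest value above Dixon's 95% critical share of the range. Chance alone flags about 1 in 20 such groups, and 3 were found. The groups share steers, so they are not independent. The change of ARFGAP1 was -0.7 (log2) in NC1, where the other 5 NC steers lay higher, and the difference between treated and NC steers was 0.29 without it and 0.39 with it. The change of MRPL4 was 0.13 in NC7, against a fall in the other NC steers. The change of the hemoglobin share was -2.61 (log2) in NC15, while it rose in the other 5 NC steers.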

How the results depend on the processing

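The 116 genes kept the direction of their difference under every alternative listed here except FDR 0.05, which changes no difference. They were chosen by this contrast in the same steers, so the kept direction is a description. The number of calls did not hold. The likelihood ratio test gave 45 (8 higher, 37 lower), with dispersions per gene, a setting chosen after seeing the data, limma voom gave 192 and DESeq2 614 (318 higher, 296 lower). It was 11 (5 and 6) with no filter on low counts, 265 (139 and 126) with a mean CPM of at least 1, and 16 at an FDR of 0.05. Without the replicate block, which ignores the pairing of days within a steer, it was 0, with 864 genes at an unadjusted p below 0.05. A day 3 by lane term gave 0 (925 at p below 0.05), lane 1 alone 0 (789), all libraries of 6 days 1, and the set without steers over 5% hemoglobin 0 (1471). The counts of 864, 925 and 789 lay below 1 in 20 of the genes tested and that of 1471 above. The number of calls was 15 without CEFT, 12 without TILD, 4 without TULA, 328 without FLOR and 214 without OXYT. Leaving out 1 steer gave 0 to 354 calls, from NC5 at 0 to Flor4 at 354. With legacy=FALSE in glmQLFit, chosen after seeing the data, it was 183. RLE size factors gave 86 (41 higher, 45 lower), TMM without hemoglobin genes 94, ComBat_seq by lane 85 (40 and 45), limma on differences 119, equal weights for the 6 treatments 132, and the set without 4 steers with muscle markers, chosen after seeing the data, 107. The likelihood ratio test among treatments gave 57 calls where the quasi-likelihood test gave 0. The hemoglobin difference of 1.1 ranged from 0.41 (without NC15) to 1.29 without an NC steer. The cause of these shifts was not tested. At the median library total 0.2 CPM is 8.68 counts, and 14226 genes with CPM above this in fewer than 12 libraries were not tested except with no filter, which tested 27236.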
